A study of Caenorhabditis elegans with 2 samples.

Results

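The *ceh* genes of *Caenorhabditis elegans* (the name stands for *C. elegans* homeobox) encode transcription factors that bind DNA through a homeodomain. They were taken as every protein-coding gene named *ceh-* plus a number in the Ensembl annotation of WBcel235, the same assembly as ce11, which gave 63 genes of 19973. For each one, the strongest listed region with its summit in the promoter window, and separately in the gene body, was read from the deposited SKN-1 lists. The promoter window reached 1000 bp upstream and 500 bp into the gene, counted from its outermost annotated start, and the gene body was everything between annotated start and end. The data are chromatin immunoprecipitation followed by sequencing (ChIP-seq) of eGFP-tagged SKN-1. All samples belong to 1 group: whole L4 larvae of strain OP342, genotype unc-119(ed3) III; wgIs342, male and female animals pooled, of unstated age, in 2 biological replicates. The tagged protein came from the integrated transgene wgIs342, in animals whose genotype also lists the allele unc-119(ed3). No untagged animals are among the samples. Whole animals were used, so a region bound in few cells and one bound weakly in many cannot be told apart, and no cell type can be assigned.

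Homeodomain proteins are known as regulators of cell identity. In worms most of them act in the nervous system, where combinations of them mark neuron classes, and others pattern muscle, pharynx and the body axis. They are grouped into classes by the sequence of the homeodomain and by further domains: CUT class proteins carry cut domains beside it, and TALE class proteins, whose homeodomain has an extended loop, include known partners of Hox proteins. SKN-1 is a relative of the mammalian Nrf factors, known for control of detoxification and proteostasis genes, mainly in the intestine of larvae, and it binds DNA as a monomer at a core of ATCAT or GTCAT preceded by A and T bases.

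The authors deposited 4 lists of regions on ce11 that were used here: 97 peaks that passed a threshold on reproducibility, 29768 regions from the pooled replicates, and 30000 regions from each replicate. The pooled list and the lists of each replicate hold peaks and background regions together, so a listed region is not by itself a bound one. Signal values are those of the authors' caller, on a scale that is not stated, and they rank regions within 1 list. In the pooled list they ran from 6.98 to 80.4 with a median of 9.53, and the weakest thresholded peak had 29.05. In replicate 1 they ran from 3.84 to 57.6 with a median of 5.19, and in replicate 2 from 4.03 to 29.3 with a median of 5.74. The median region was 240 bp wide in replicate 1 but 396 bp wide in replicate 2, and 390 bp wide in the pooled list. The lists give no read counts, and depth is unknown. With 1 group there is no test between conditions, and the values below are descriptions.

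A single *ceh* gene, *ceh-38*, carried a thresholded peak in its window or body. Among all protein-coding genes 0.451% did (90 of 19973). *ceh-38* (WBGene00000459; chromosome II, 6951526 to 6955409, plus strand) encodes a CUT class factor of the ONECUT type, a group known for acting on genes that all neurons share. Its pooled region, II:6951379-6951768, ranked 70 of 29768 with a signal of 31.9, against 29.05 for the weakest thresholded peak. Its summit lay 48 bp downstream of the gene start, in the 5′ untranslated part of the first exon. In replicate 1 the strongest region at the gene ranked 264 with a signal of 13.1 and its summit 94 bp downstream of the start. In replicate 2 it ranked 48 with a signal of 18.4 and its summit 31 bp downstream of the start. Both replicates thus listed the region near the top, with summits 63 bp apart and overlapping regions, although in replicate 1 it stood below the 97 strongest. No other *ceh* gene had a region among the 1000 strongest of both replicates in its window, which 0.531% of all genes had.

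The *ceh-38* start is shared ground. The neighbouring gene *malt-1* (WBGene00017702), which encodes the worm paracaspase, runs leftward from a start 226 bp to the left, and the summit lay 274 bp upstream of it. The peak therefore counts for both genes, and which of them it belongs to cannot be read from its position. *ceh-38* itself has 11 annotated transcript starts, spread from 0 to 544 bp downstream of the outermost one. A further pooled region, II:6951601-6951990, ranked 1423 with a signal of 16.9, overlapped the first by 168 bp and had its summit 270 bp downstream of the start, in the first intron. Neither replicate listed a separate region there. The stretch between the 2 gene starts and the intronic part of the further region are given here because the only thresholded peak of the family reaches into both; both read 5′ to 3′ on the plus strand of WBcel235 (RefSeq), and capitals mark an SKN-1 site or its core.
ceh-38 and malt-1 intergenic stretch, II:6951301-6951525: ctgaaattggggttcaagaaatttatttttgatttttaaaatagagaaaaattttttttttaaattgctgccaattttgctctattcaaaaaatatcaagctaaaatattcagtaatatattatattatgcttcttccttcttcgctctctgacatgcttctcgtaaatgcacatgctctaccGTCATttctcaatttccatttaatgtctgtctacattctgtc
ceh-38 first intron, II:6951705-6951990: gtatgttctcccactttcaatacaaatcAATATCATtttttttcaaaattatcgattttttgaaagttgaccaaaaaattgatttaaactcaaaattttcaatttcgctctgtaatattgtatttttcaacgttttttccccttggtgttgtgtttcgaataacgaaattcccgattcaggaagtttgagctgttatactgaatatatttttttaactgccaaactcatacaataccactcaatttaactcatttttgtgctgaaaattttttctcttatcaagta
The intergenic stretch was AT-rich, with a GC content of 28.9%, and held the core letters GTCAT in 1 place without the full site. The intron held 1 full site, AATATCAT, which began 207 bp downstream of the gene start and 159 bp from the summit of the thresholded peak. Within 100 bp of that summit there was no full site.

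**Figure D1:**
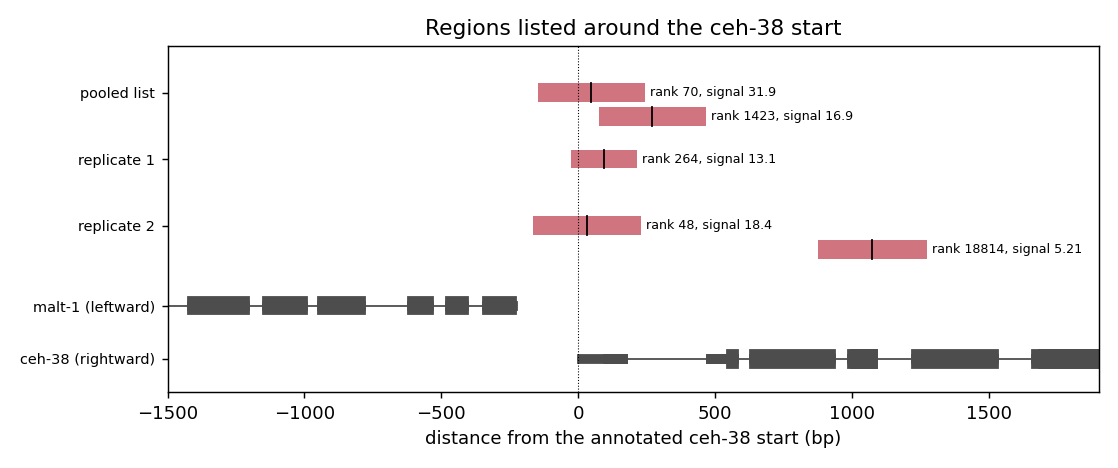
Regions listed around the *ceh-38* start, by distance from the start in bp; red bars are regions with their rank and signal value in their own list, black ticks are summits, thick grey boxes are coding exons and thin boxes untranslated exons. The regions of the pooled list (rank 70), replicate 1 (rank 264) and replicate 2 (rank 48) overlap over the first exon of *ceh-38*, to the right of the *malt-1* start.

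Of the other CUT class genes, *ceh-39*, *ceh-48* and *ceh-49* had pooled window regions among the 5 strongest of the family, at signals well below that of *ceh-38*. The class was assigned from general knowledge of the genes, and 6 members belong to it: *ceh-21*, *ceh-38*, *ceh-39*, *ceh-41*, *ceh-48* and *ceh-49*. Of these 6, 5 had a pooled region in the window, where 41.7% of all genes did, with a median rank of 2219, where over all genes with one the median rank was 12402. The replicates differed on these 5 genes. Their strongest window regions in replicate 1 ranked 264, 3300, 17430, 24530 and 25895, where the median over all genes with one was 12661. Those in replicate 2 ranked 48, 692, 7019, 8009 and 19750, where that median was 13006. *ceh-39* is known as an X-linked signal that represses the sex switch gene *xol-1*. Its pooled region ranked 1947, with a signal of 15.9 and its summit 291 bp upstream of the start. The replicate regions over it ranked 3300 (signal 7.85) in replicate 1 and 7019 (signal 7.41) in replicate 2, but their summits were 324 bp apart and the regions did not overlap each other. *ceh-48*, a neuronal ONECUT gene, had its pooled region at rank 2361, with a signal of 15.3 and its summit 497 bp upstream. Here the replicates placed their summits 11 bp apart, the closest of the 11 *ceh* windows that both listed, though at middling ranks of 17430 (signal 4.91) in replicate 1 and 8009 (signal 7.13) in replicate 2.

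For *ceh-49* the pooled region ranked 2219 with a signal of 15.5, and its summit, 954 bp upstream, lay in an intron of the neighbouring gene *ttn-1*, which encodes a giant titin-like muscle protein. Replicate 2 listed that region at rank 692 with a signal of 12.01. Replicate 1 listed none over it. A weaker pooled region 327 bp upstream (rank 28498, signal 7.15) was overlapped by both replicates, at rank 24530 in replicate 1 and rank 16182 in replicate 2. *ceh-21* had a pooled window region at rank 16534, with its summit in the neighbour *T26C11.9*, and the adjacent *ceh-41* had none in its window in any list. Of the 5 strongest pooled window regions of the family, 4 belonged to CUT class genes, and the signals of *ceh-39*, *ceh-48* and *ceh-49*, from 15.3 to 15.9, were all below that of *ceh-38*, 31.9. The median pooled ranks of the other classes with a window region ran from 13022 to 25618. The classes were set with earlier results of these data known, and this ordering was not tested.

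Outside the CUT class, the strongest window region was that of *ceh-74* (WBGene00013876, chromosome V). It ranked 912 in the pooled list with a signal of 18.4, which makes *ceh-74* and *ceh-38* the only members with one of the 1000 strongest pooled regions in the window. Of all genes 2.48% had one, close to the 3.17% of the family. The summit lay 883 bp upstream, in an intron of the neighbour *cest-2.3*. The replicates listed it at rank 10526 (signal 5.83) in replicate 1 and rank 5744 (signal 7.81) in replicate 2, 61 bp apart. It overlapped in both lists, then, but was outside the 1000 strongest of either.

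The 121 bases around 3 of these summits are given as examples with both replicates listed, each on the strand of its gene, with any core in capitals.
ceh-74, V:14177136-14177256, plus strand: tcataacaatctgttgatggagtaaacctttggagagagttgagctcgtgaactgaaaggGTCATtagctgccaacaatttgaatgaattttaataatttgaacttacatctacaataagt
ceh-39, X:1856403-1856523, minus strand: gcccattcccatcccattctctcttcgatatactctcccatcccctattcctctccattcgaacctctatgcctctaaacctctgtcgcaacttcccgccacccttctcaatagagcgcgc
ceh-48, IV:6811551-6811671, plus strand: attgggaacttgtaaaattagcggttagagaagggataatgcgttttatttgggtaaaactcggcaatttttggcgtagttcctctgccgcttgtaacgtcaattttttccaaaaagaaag
The *ceh-74* stretch held the core letters GTCAT in 1 place, starting at the summit. The other stretches held neither core, and that of *ceh-39* was the richest in GC of the 3, at 52.9%, against 33.9% at *ceh-74* and 38.02% at *ceh-48*.

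**Figure D2:**
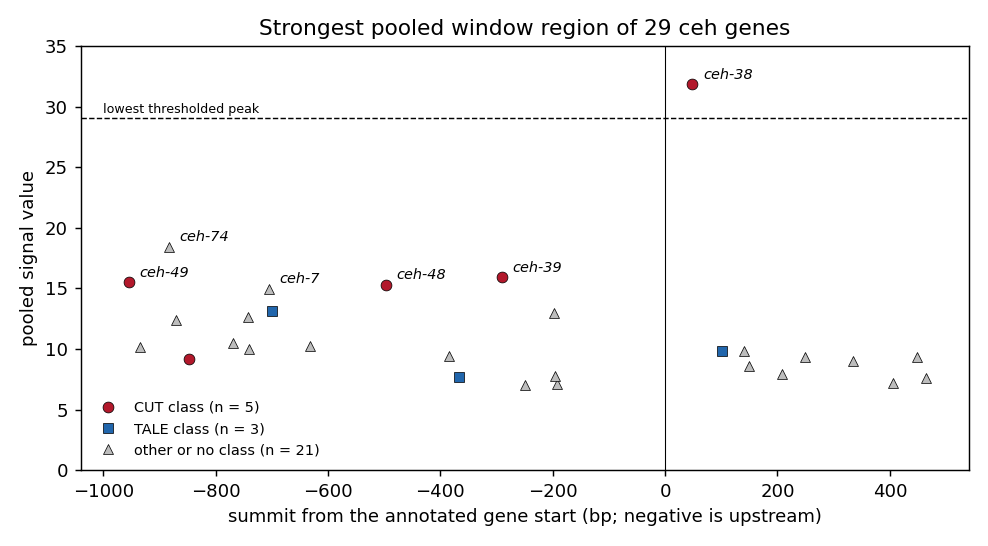
Pooled signal value of the strongest window region of the 29 *ceh* genes with one, by the position of its summit from the annotated start in bp; colours and shapes give the class and the dashed line is the weakest thresholded peak. *ceh-38* is the only point above the line, and the 5 CUT class points lie from 954 bp upstream to 48 bp downstream.

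The members known as partners of Hox proteins, the TALE class genes *ceh-20*, *ceh-40* and *ceh-60*, each had a pooled window region, where 41.7% of all genes had one, and none was among the 1000 strongest. *ceh-20*, the worm counterpart of extradenticle and Pbx, had one at rank 4778 with a signal of 13.2, 699 bp upstream of the start. Replicate 1 placed a region over it at rank 1938 (signal 8.75) and replicate 2 placed none. *ceh-40* had its pooled region at rank 13584 (signal 9.87), 102 bp downstream of the start, with replicate regions at ranks 20484 and 20042. *ceh-60*, a regulator of yolk protein genes in the intestine, had a window region of rank 25088 (signal 7.65) with no replicate region over it. Its gene body held a stronger one, within an intron and 4067 bp from the start, at rank 3487 (signal 14.1), with rank 4256 (signal 7.42) in replicate 1 and rank 29747 (signal 4.05), near the end of the list, in replicate 2.

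Among Hox and NK-like (ANTP class) members, 7 of 18 had a pooled window region, where 41.7% of all genes had one. The highest was *ceh-7*, at rank 2634 (signal 14.96) and 705 bp upstream, with a region in replicate 2 (rank 2293, signal 9.67) and none in replicate 1. That summit was nearer to *prx-5*, the gene of the peroxisomal import receptor, whose start it lay 290 bp upstream of. *ceh-1* had a pooled region at rank 5641 (signal 12.7), 743 bp upstream, with replicate 2 alone placing one over it (rank 3143, signal 9.03). *ceh-2*, an Emx-type gene of the pharynx, stood at rank 11132 (signal 10.5) and *ceh-27*, an NK-2 type gene, at rank 13022 (signal 10.01), again with replicate 2 only. *ceh-22*, a pharyngeal muscle gene of the Nkx2.5 type, had a pooled region near the end of the list, at rank 28934 (signal 7.09), with neither replicate over it. *ceh-13*, the labial-type Hox gene, had no pooled window region and 1 weak one in replicate 1 (rank 16174, signal 5.05). *ceh-51*, which acts in early mesoderm, had no region in its window or body in any list.

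The remaining members named by strength were of other classes or not classed. *ceh-32*, a gene of the sine oculis class that acts in the head, had a pooled region at rank 5060 (signal 12.99), 197 bp upstream, with weak regions over it in replicate 1 (rank 11433, signal 5.68) and replicate 2 (rank 27878, signal 4.22). *ceh-99* stood at rank 6148 (signal 12.4), 871 bp upstream, and was listed by both replicates, at rank 4415 (signal 7.36) in replicate 1 and rank 1597 (signal 10.3) in replicate 2. Its summit was nearer to the chemoreceptor gene *srh-70*, 251 bp upstream of that start. *ceh-90* and *ceh-79* followed at ranks 12142 (signal 10.2) and 12409 (signal 10.2). After *ceh-99* the next member stood at rank 11132, and the 19 weaker window regions had signals from 7.06 to 10.5, around the pooled list's own median of 9.53.

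**Figure D3:**
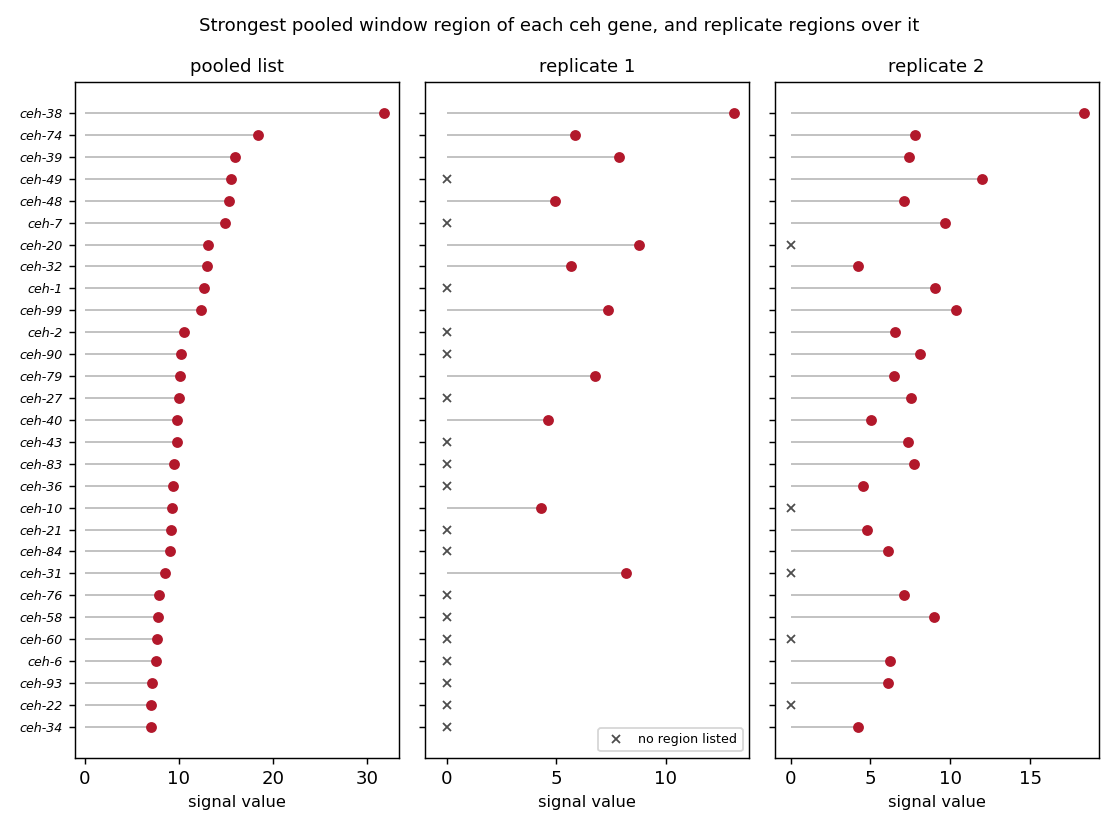
Signal value of the strongest pooled window region of each of 29 *ceh* genes (left), and of the strongest region overlapping it in replicate 1 (middle) and replicate 2 (right); crosses at 0 mark genes with no such region listed. *ceh-38* stands highest in all 3 panels, and crosses are more frequent in replicate 1 than in replicate 2.

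In gene bodies the only region among the 1000 strongest pooled regions was again that of *ceh-38*, since its summit lies just inside the gene. Over all genes 2.46% had one in the body. The next was at *ceh-10*, a Chx10-type gene known for specifying the AIY interneurons, at rank 2261 (signal 15.5) in a coding exon 1808 bp downstream of the start. Both replicates listed it, at rank 8865 (signal 6.14) in replicate 1 and rank 1264 (signal 10.8) in replicate 2, with summits 34 bp apart. *ceh-10* lies inside *polq-1*, the gene of a DNA repair polymerase, so the region counts for both. *ceh-5* followed at rank 2815 (signal 14.7), where it overlaps *ocrl-1* and the summit is 306 bp downstream of the *ocrl-1* start; replicate 2 alone listed it. The goosecoid-type gene *ceh-45* (rank 3073, signal 14.5), *ceh-88* (rank 3144, signal 14.4) and the NK-2 type gene *ceh-24* (rank 3484, signal 14.1) had regions from both replicates over theirs. At *ceh-88* these were weak, at rank 18983 in replicate 1 and rank 29577, near the end of the list, in replicate 2. The *ceh-88* summit lay in the 3′ untranslated part, 544 bp upstream of *C49C3.6*, whose start was nearer. *ceh-60* (rank 3487), given above, came next. *ceh-1* (rank 3742, signal 13.9), *ceh-27* (rank 5186, signal 12.9) and the Rx-type gene *ceh-8* (rank 6295, signal 12.3) completed the 10 strongest. Only replicate 2 had a region over that of *ceh-1* (rank 10994), and only replicate 1 over that of *ceh-27* (rank 6268). Both had one over that of *ceh-8*, at rank 16945 in replicate 1 and rank 14933 in replicate 2. The *ceh-8* summit was nearer to the start of *col-63*, 664 bp upstream of it. Beyond the first 500 bp of the gene, the highest pooled signal in a *ceh* body was 15.5, at *ceh-10*, where the weakest thresholded peak had 29.05.

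Counted over the family, regions were about as frequent as over all genes. A pooled region of any strength had its summit in the window of 29 of 63 *ceh* genes (46.0%, exact 95% interval 33.4 to 59.1%), and in the windows of 41.7% of all genes. It did so in the body of 39 (61.9%, 48.8 to 73.9%), against 51.7% of all genes. The *ceh* genes are longer, with a median of 2652 bp against 2027 bp over all genes, and per kb of gene body the *ceh* genes held 0.292 pooled regions and all genes 0.316. Beyond the first 500 bp the body held a region in 34 *ceh* genes (53.97%), against 42.4% of all genes. The strongest window region had a median signal of 9.87 over the 29 *ceh* genes with one and 10.2 over the 8325 of all genes with one. In the body the medians were 10.5 and 10.5. Intervals cover counting error over genes only. Both of these intervals include the share of all genes.

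**Figure D4:**
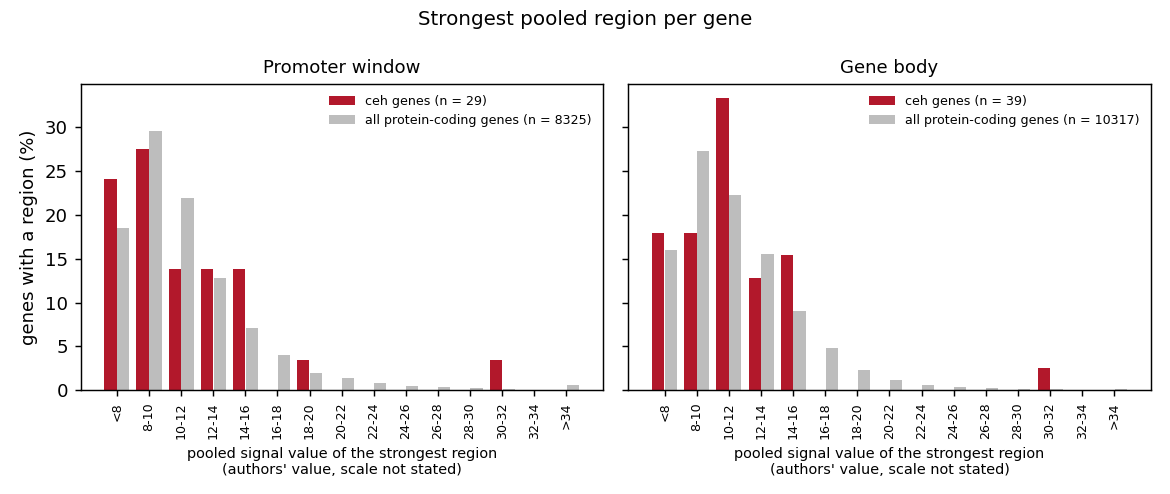
Percent of genes, by the pooled signal value of their strongest region in the promoter window (left) or gene body (right), for *ceh* genes (red) and all protein-coding genes (grey); only genes with a region are counted, 29 and 39 *ceh* genes. Both sets are concentrated between 8 and 16, and the isolated red bar at 30 to 32 is *ceh-38* in both panels.

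The replicates differed in how often they listed a *ceh* window. Replicate 1 had a region in 23 (36.5%, 24.7 to 49.6%), against 42% of all genes. Replicate 2 had one in 34 (53.97%, 40.9 to 66.6%), against 41.6% of all genes. The interval of each replicate includes the share of all genes. Of the 29 strongest pooled window regions, 8 were overlapped by regions of both replicates, 16 by replicate 2 only, 3 by replicate 1 only and 2 by neither; over all genes with one the shares were 31.1%, 31.5%, 25.1% and 12.3% in the same order. Replicate 2 alone thus accounted for 55.2% of the *ceh* window regions. Of the 39 strongest pooled body regions, 12 were overlapped by both replicates, 14 by replicate 2 only, 13 by replicate 1 only and 0 by neither. Over all genes with one the shares were 31.3%, 32.1%, 24.7% and 11.9% in the same order, against 30.8%, 35.9%, 33.3% and 0% for *ceh* genes. The body had a region in 37 *ceh* genes in replicate 1 (58.7%, against 51.8% of all genes) and in 40 in replicate 2 (63.5%, against 52.4%). Of the 1000 strongest regions of replicate 1, 1 *ceh* gene had one in its window (*ceh-38*), against 2.48% of all genes. Of those of replicate 2, *ceh-38* and *ceh-49* had one, against 1.98% of all genes.

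Both replicates had some region in the window of 11 *ceh* genes (17.5%), against 20.9% of all genes. Their strongest regions overlapped in 6 of these (9.52%), against 10.5% of all genes: *ceh-38*, *ceh-48*, *ceh-74*, *ceh-99*, *ceh-40* and *ceh-21*. In the 5 others the summits were 324 to 1082 bp apart. Both had some region in the body of 24 *ceh* genes (38.1%), against 34.8% of all genes, and the strongest ones overlapped in 5 (7.94%), against 8.76% of all genes. At the other end, *ceh-9*, *ceh-51*, *ceh-75* and *ceh-87* had no region in window or body in any list (6.35%), against 14.9% of all genes.

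**Figure D5:**
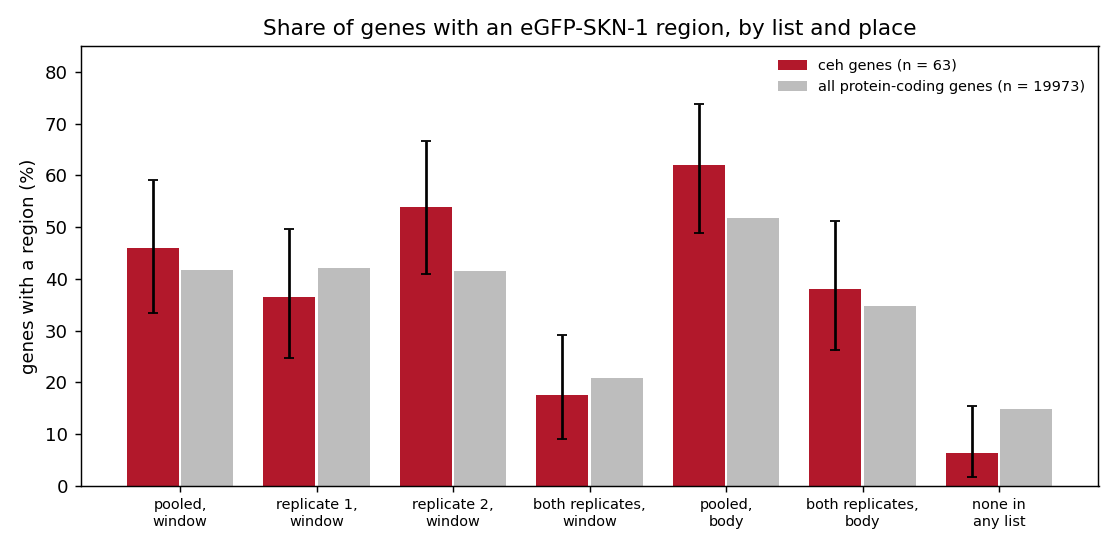
Percent of *ceh* genes (red, 63 genes, with exact 95% binomial intervals) and of all protein-coding genes (grey, 19973 genes) with a region in the promoter window or gene body, by list. The last pair of bars instead gives the percent with no region in window or body in any list. The *ceh* share was below that of all genes in replicate 1 windows and above it in replicate 2 windows, and both intervals include the share of all genes.

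Sequence around the summits was also near the genome-wide figure. The site was searched on both strands within 100 bp of the summit as AATATCAT, AATGTCAT, ATTATCAT, ATTGTCAT, TATATCAT, TATGTCAT, TTTATCAT or TTTGTCAT, and its core as ATCAT or GTCAT; the core lies inside the site, so every site is also a core match. The site was found at 4 of the 29 strongest *ceh* window regions (13.8%), against 9.09% of the 8325 over all genes and 9.35% of all pooled regions. The core was found at 17 of 29 (58.6%), against 55.7% over all genes. The 4 with a site were *ceh-90*, *ceh-40*, *ceh-83* and the POU class gene *ceh-6*, all with pooled ranks from 12142 down, so none of the 10 strongest window regions had one. Sites of 3 of them are shown on the strand of the gene, with 10 bases to each side, and the sites and cores in capitals.
ceh-90, X:14157648-14157675, minus strand: gcggtcaccgTTTATCATttcctgctcc
ceh-40, X:12320712-12320739, minus strand: tttcctGTCATTTATCATtaattctggt
ceh-83, II:1736814-1736841, minus strand: actctgttttATGATAATaaaaattatt
At *ceh-90* the site began 652 bp upstream of the start and 21 bp from the pooled summit. At *ceh-40* it began 48 bp downstream of the start, in the 5′ untranslated part, overlapping a further core match at its first base. At *ceh-83* it read on the opposite strand, began 298 bp upstream of the start and lay 86 bp from the summit.

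By annotated feature and side of the start, the summits were placed much as they were over all genes. Of the 29 *ceh* window summits 15 were intergenic, 7 in coding exons, 5 in introns and 2 in 5′ untranslated exons, against 46.4%, 27.7%, 17.5% and 5.09% over all genes. Summits were upstream of the start in 19 of 29 (65.5%), against 66.7% over all genes, with a median position of −291 bp against −217 bp. The GC content around them had a median of 37.8% against 37.3%. In 10 cases the summit lay inside the *ceh* gene, in 4 inside another gene only, and in 5 it was in the window of another gene too. No share over all genes was taken for these counts. For *ceh-7*, *ceh-99* and *ceh-21* another gene's start was nearer. By chromosome, 18 of the 63 *ceh* genes are on X, and 9 of these had a pooled window region (43.4% of all X genes did) and 15 a body region (56.4% of all X genes did). On the autosomes 20 of 45 had a window region, where 41.4% of all autosomal genes did, and 24 a body region, where 50.9% did. The body share of *ceh* genes was above that of all genes on X and near it on the autosomes, which was not tested.

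Many homeobox genes are known to be controlled from long upstream stretches, which the window does not reach. The *ceh* genes had a median of 1805 bp to the next protein-coding gene upstream, against 937 bp over all genes. These stretches held 69 pooled regions in the 58 *ceh* genes that have one, or 0.298 per kb, against 0.278 per kb over all genes. The strongest was upstream of *ceh-36*, an Otx-type gene of chemosensory neurons, at rank 702 (signal 19.3). It lay 10351 bp from the *ceh-36* start, at the far end of the stretch, near the 3′ end of *ceh-37*, another member. It had a region over it in replicate 1 (rank 1050, signal 9.90) but none in replicate 2. Next came a region 4154 bp upstream of *ceh-58*, at rank 835 (signal 18.8), listed at rank 8731 in replicate 1 and rank 5023 in replicate 2. In the 19027 bp upstream of *ceh-13* the strongest region, rank 1791 (signal 16.2), lay 18895 bp from *ceh-13* and 133 bp upstream of *lin-39*, the Hox gene next to it. The Dlx-type gene *ceh-43* had a region at rank 3121 (signal 14.4) 3706 bp upstream, with neither replicate over it. These stretches were examined after the window values were known.

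Homeobox genes with other names were read in the same way. Of a list of 40, all found in the annotation, none had a thresholded peak in the window or body, against 0.451% of all genes, and none had one of the 1000 strongest pooled regions in the window, against 2.48% of all genes. In the body 1 of the 40 had one of the 1000 strongest pooled regions, against 2.46% of all genes. In replicate 2, 2 of the 40 had one of its 1000 strongest regions in the window (5.0%), against 1.98% of all genes. A pooled window region of any strength was present in 29 of 63 *ceh* genes and in 19 of the 40 others (47.5%). A pooled body region was present in 39 of 63 *ceh* genes and in 29 of the 40 others (72.5%), whose median length was 4680 bp. The strongest window region among the 40 was that of *lin-39*, the one just described, with rank 3076 in replicate 1 and rank 14016 in replicate 2; it is named after its value was seen. Over the 63 *ceh* genes and these 40, 103 homeobox genes in all, *ceh-38* alone had a thresholded peak.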

How the data were processed

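The samples were 2 biological replicates of 1 group, immunoprecipitated for eGFP-SKN-1. Per the labels' file listing, the authors' replicate and pooled lists mix peaks with background regions, and their thresholded list holds what passed the irreproducible discovery rate. Which caller, aligner and rate they used is not stated in the labels or headers, and the control is not analysed here. Regions were ranked by the authors' deposited signal value (column 7); the −log10 q-value they deposited in column 9 played no part. The 97 thresholded peaks were checked to be the 97 strongest pooled regions. Equal list lengths of 30000 mean that presence alone does not mark a region as bound.

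Genes came from Ensembl release 115 and sequence from RefSeq WBcel235, the same assembly as ce11; ce10 lists were not used. Coordinates count from 1. A summit inside a window or body counted for every gene it fell in, and regions overlapped when they shared at least 1 bp. Intervals are Clopper-Pearson at 95%. No test was made. The *ceh* genes, the classes, the list of 40 other homeobox genes and the rules were chosen with earlier results of these data known. Genes named were those with a thresholded peak, the 15 with the strongest pooled window region, the 10 with the strongest pooled body region, any in the 1000 strongest of both replicates, and *ceh-13*, *ceh-20*, *ceh-22*, *ceh-51* and *ceh-60*; others were named after their values were seen. The search was tested on simulated regions, where all 2000 planted were recovered. Alternatives changed the window, start, overlap, list, strength and motif width. Python 3.11.15, numpy 2.4.6, pandas 2.3.3, scipy 1.17.1 and matplotlib 3.10.9 were used.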

Additional observations from a re-analysis of the deposited data

How the results depend on the processing

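Of 47 alternatives, 45 of them planned, 29 left a count within 1.5 times the reported one, or the median signal within the SD between the replicates' own medians, and 18 moved it further. The tally follows the *ceh* values alone. Settings that changed how many regions or bases were searched also moved the share of all genes, given in brackets below. The tally therefore does not measure how stable the comparison with all genes is. Among regions ranked above the middle of the pooled list, 16 *ceh* genes had a window region (24.1% of all genes), where 29 had one in the whole list (41.7%), and the median signal over those genes was 12.8, where it was 9.87. The thresholded peak at *ceh-38* was not among the stronger part of the thresholded peaks, leaving 0 members (0.23% of all genes). With 1 replicate's strongest 97 regions in its place, 0 to 1 members had one: 0 in the list of replicate 1 (0.466% of all genes) and 1 in that of replicate 2 (0.446%). Members with one of the strongest pooled regions in the window numbered 2 among 1000, 1 among 500 and 7 among 5000 (2.48%, 1.42% and 9.46% of all genes). With a window of 500 bp upstream there was 1 (1.79%). With 1 replicate's 1000 strongest regions there was 1 in replicate 1 (2.48%) and 2 in replicate 2 (1.98%). In the body 1 member had one of the 1000 strongest pooled regions (2.46% of all genes) and 8 had one of the 5000 strongest (13.1%). With the first 500 bp of the body left out, 0 had one of the 1000 strongest (1.99%). Windows with a region in both replicates numbered 11, 7 with 500 bp upstream, 17 with 2000 bp upstream and 3 among the 10000 strongest of each replicate (20.9%, 12.6%, 35.5% and 4.74% of all genes). The median signal was 5.23 to 6.86 in the list of 1 replicate alone, on a scale of its own. The site was near 4 window summits, 9 within 200 bp and 17 for its core alone (9.09%, 18.7% and 55.7% over all genes), and 1 to 5 with 1 replicate's regions. Taking the whole upstream stretch in place of the window, added after seeing the data, gave 30 members with a region (35.3% of all genes) and 2 with one of the 1000 strongest (3.03%). Depth is unknown, there are no untagged animals, and the lists rank regions without an error, so differences between neighbouring ranks cannot be judged. No paired analysis was possible because there is 1 group and no test.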
